A study of Mus musculus with 16 samples.

Results

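The transcripts of apolipoprotein E (Apoe), apolipoprotein C1 (Apoc1) and transthyretin (Ttr), which code for 3 secreted carrier proteins, were followed in kidney RNA of 5 wild-type mice, male littermates of which the right kidney was taken. They are 3 of the 9669 genes that the platform's annotation names on the array, and were represented by 4 of its 20205 probes, taken as every probe annotated to Apoe, Apoc1 or Ttr and to no other gene. Apoe and Apoc1 had 1 probe each, and Ttr had 2, numbered 18 and 2234 in the deposited values. All 4 probes gave a value on all 16 arrays.

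The mice, W1 to W5, carried no mutation, transgene or treatment. Their background mixed C57BL/6 and 129Sv, and their age at death was 88 ± 2 days. Each of W1 to W4 was compared with W5 on 4 two-colour arrays, of which 2 held the mouse in channel 1 and 2 held it in channel 2. The study asked how much transcript levels vary between normal individuals. Each value is a log2 ratio, turned so that all arrays run from the mouse against W5. Which channel was the numerator is not given in the sources used here, so a plus or minus sign marks a side of W5 and does not say which kidney held more RNA.

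Apoe is the ligand by which lipoprotein remnants bind receptors of the LDL receptor family. Macrophages and steroid-producing cells are among the cells that make it outside the liver. Apoc1 is a small exchangeable apolipoprotein that hinders this uptake and inhibits lipoprotein lipase, and its gene lies beside Apoe in a cluster with Apoc2 and Apoc4. Transthyretin, made mainly in liver and choroid plexus, carries thyroxine and, bound to retinol binding protein, retinol. Its binding holds retinol binding protein back from filtration in the glomerulus, and the unbound proteins that are filtered are taken up by the proximal tubule through megalin, the product of Lrp2. In whole kidney RNA, fewer cells of a type and less RNA per cell cannot be told apart.

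The 3 genes were selected on these log2 ratios, so their values are a description and carry no test. Each value of a mouse is the fitted coefficient with its standard error (SE) over n = 4 arrays, all hybridised with RNA of the same pair of kidneys. The error therefore measures the technical spread and not the spread among mice in general. The range of a probe is its highest less its lowest kidney, W5 counting as 0. Its technical SD is the residual spread of single arrays in the fit.

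Apoe lay on the plus side of W5 on 16 of 16 arrays. W1 gave 0.26, 0.08, 0.23 and 0.31 on arrays 1 to 4. W2 gave 0.22, 0.33, 0.10 and 0.89, where array 4 stood above the other arrays of that kidney. W3 gave 0.12, 0.23, 0.14 and 0.17, although single arrays of W1 and W2 read lower. The W4 arrays read 0.61, 0.51, 0.30 and 0.33, of which the lower values overlapped with those of W1 and W2.

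Fitted values of Apoe in W1 to W4 were 0.22, 0.39, 0.16 and 0.44, each ± 0.10 (SE, n = 4 arrays). The order of the kidneys was thus W5, W3, W1, W2 and W4, over a range of 0.44 or 1.35-fold. Neighbours in this order above W5 did not differ by more than 2 SE, and neither did W5 and W3, at 0.16 ± 0.10. W4 and W3, the outermost of the 4 littermates of W5, were 0.27 ± 0.14 apart. Without array 4 of W2 the value of that kidney was 0.22, close to W1. Over the 4 mice the mean was 0.30 ± 0.13 (SD, n = 4 mice). Of the 11192 probes measured on all 16 arrays, 50 had all their values on 1 side of W5 (0.447%).

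Apoc1 lay on the opposite side of W5 from Apoe in the fitted values of all 4 mice. W1 gave -0.24, -0.08, -0.40 and 0.10 on arrays 1 to 4. The W2 arrays read -0.72, -0.05, -0.63 and -0.04, which held the values farthest from W5. W3 gave -0.31, -0.22, -0.37 and 0.34, and W4 gave -0.40, 0.11, -0.43 and -0.10. In each mouse arrays 1 and 3 were lower than arrays 2 and 4.

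Fitted values of Apoc1 in W1 to W4 were -0.15, -0.36, -0.14 and -0.20, each ± 0.08 (SE, n = 4 arrays). The order away from W5 was W3, W1, W4 and W2, and no pair among these 4 kidneys was over 2 SE apart. W2 and W4 lay over 2 SE from W5, while W1 and W3 did not. The range was 0.36, or 1.28-fold, and without mouse W2 it was 0.20. The smaller values rested on single arrays, as W1 was at -0.10 without its array 2, and W3 at -0.03 without its array 2 and -0.23 without its array 4.

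**Figure D1:**
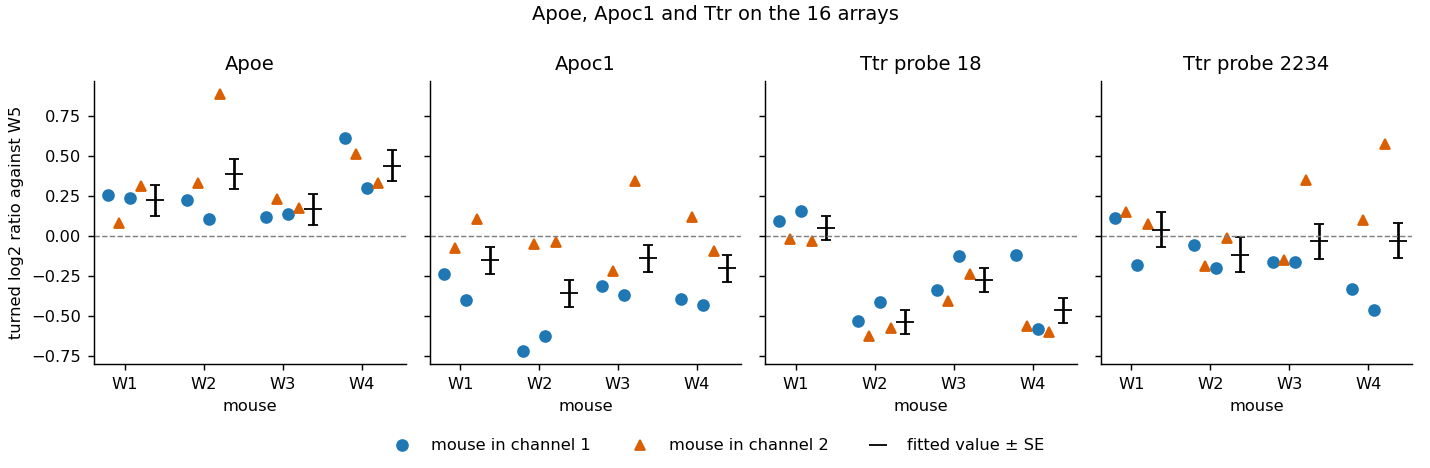
Turned log2 ratios against W5 (vertical axis) on the 4 arrays of each mouse, in array order 1 to 4 from left to right, for the 4 probes. Circles are arrays with the mouse in channel 1, triangles arrays with the mouse in channel 2, and black bars the fitted value with its SE. Apoe lies above 0 on all arrays, Apoc1 splits by channel, and Ttr probe 18 lies low in W2 and W4 but near 0 in W1.

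The channel orientation mattered most for Apoc1. With the mouse in channel 1, all 8 arrays lay below 0, between -0.72 and -0.24 with a median of -0.40. With the mouse in channel 2, the 8 arrays lay between -0.22 and 0.34 with a median of -0.05, and 3 were above 0. These groups of arrays did not overlap, as in 1.77% of the probes measured on all 16 arrays.

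The dye term of the fit, which takes up this difference, had a size of 0.22 for Apoc1, larger than in 96.8% of the tested probes. The mean of the mice was likewise -0.22 ± 0.10 (SD, n = 4 mice). Means over the channel 2 arrays were 0.01, -0.05, 0.06 and 0.01 in W1 to W4, whereas the channel 1 arrays gave -0.32, -0.67, -0.34 and -0.42. Each mouse has 2 arrays in each orientation, so an equal dye effect cancels in its value. The fitted values of Apoc1 were the same without the dye term, at -0.15, -0.36, -0.14 and -0.20 in W1 to W4.

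Apoe did not share this split. Its dye term had a size of 0.05, below the median of 0.07 over all tested probes. The channel means of Apoe in W2 nevertheless were 0.16 and 0.61, the latter holding array 4. In the other 3 mice they differed by less, at 0.25 and 0.19 in W1, 0.13 and 0.20 in W3, and 0.45 and 0.42 in W4.

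**Figure D2:**
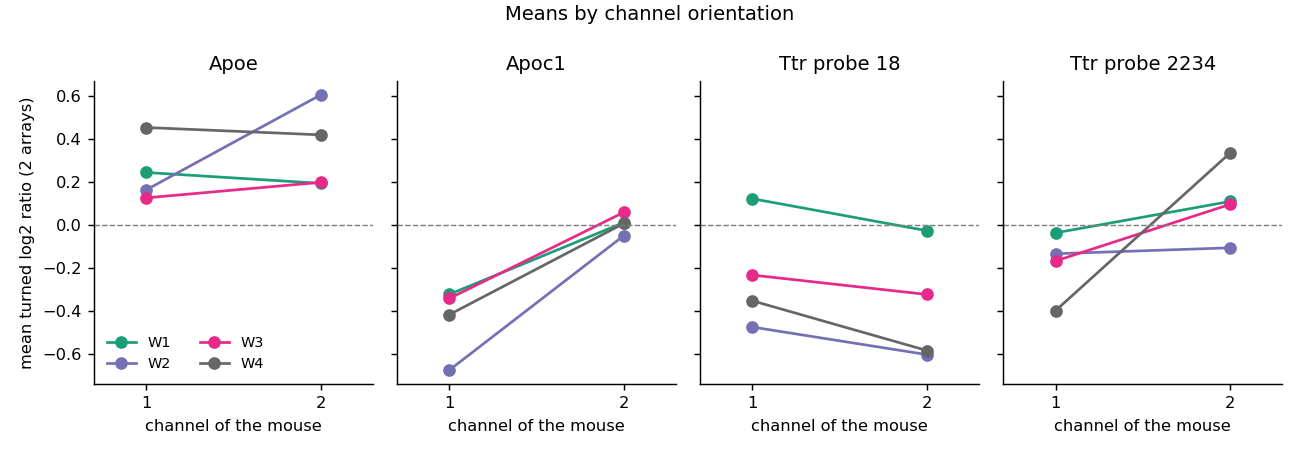
Mean turned log2 ratio against W5 over the 2 arrays of each orientation (vertical axis), with the mouse in channel 1 or channel 2 (horizontal axis), for each mouse and probe. The lines of Apoc1 rise from between -0.67 and -0.32 to about 0 in all 4 mice, while those of Ttr probe 18 keep the order of the mice.

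Ttr was read by probes that gave different pictures. Probe 18 set W1 and W5 apart from the other kidneys. W1 gave 0.09, -0.02, 0.16 and -0.03 on arrays 1 to 4, on both sides of W5. All 4 arrays of W2 were far below 0, at -0.53, -0.63, -0.42 and -0.58. W3 gave -0.34, -0.41, -0.12 and -0.24, and W4 gave -0.12, -0.56, -0.58 and -0.60. The highest array of W2, W3 and W4 read -0.12 and the lowest of W1 -0.03. How many of all probes show such a gap was not counted.

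Fitted values of probe 18 in W1 to W4 were 0.05, -0.54, -0.28 and -0.47, each ± 0.08 (SE, n = 4 arrays). The range of 0.59 on the log2 scale lay between W1 and W2 and exceeded that of 96.3% of the tested probes. In the order W1, W5, W3, W4 and W2, the step from W5 to W3 was over 2 SE, while W1 and W5, W3 and W4, and W4 and W2 were each within 2 SE. W3 and W2 were 0.26 ± 0.11 apart. Its technical SD of 0.12 was below that of most probes, with 10.1% of tested probes lower, and its dye term had a size of 0.07.

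Probe 2234 stayed near W5 in all mice. Its arrays 1 to 4 gave 0.11, 0.15, -0.18 and 0.07 in W1 and -0.06, -0.19, -0.20 and -0.02 in W2. W3 gave -0.17, -0.15, -0.17 and 0.35, and W4 gave -0.33, 0.10, -0.46 and 0.57. The W4 arrays covered the values of every other mouse.

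Fitted values of probe 2234 were 0.04, -0.12, -0.03 and -0.03 in W1 to W4, each ± 0.11 (SE, n = 4 arrays). No pair of the 5 kidneys was over 2 SE apart. Its range of 0.16 was above that of 19.1% of the tested probes. The technical SD was 0.23 and the dye term had a size of 0.15, so it was the noisier Ttr probe, and in W4 the channel means were -0.40 and 0.34.

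The difference between the Ttr probes, 18 less 2234, averaged 0.01 ± 0.23 (SD, n = 4 arrays) for W1 and -0.42 ± 0.15 for W2. It averaged -0.24 ± 0.26 for W3 and -0.44 ± 0.61 for W4. Probe 18 was the lower one on 13 of 16 arrays and on all 4 arrays of W2. Across arrays the difference ran from -1.18 to 0.34. The deposited values do not settle which probe follows the Ttr transcript, so the profile of probe 18 cannot be ascribed to Ttr with certainty.

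**Figure D3:**
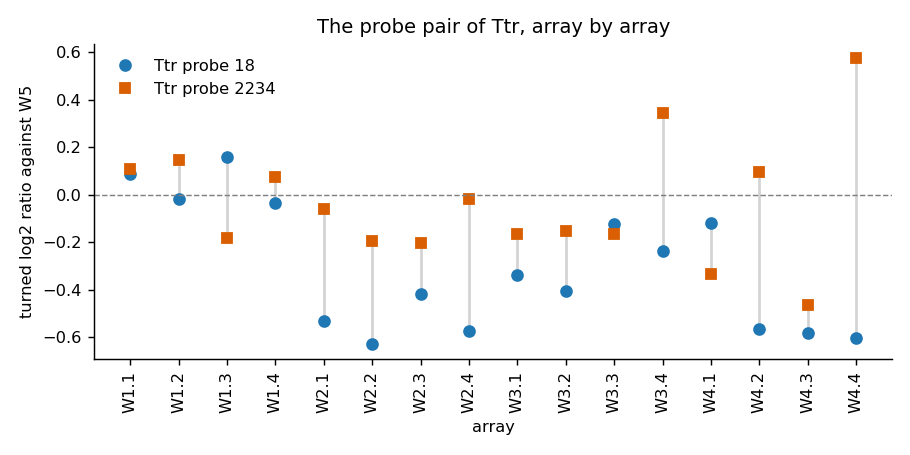
Turned log2 ratio against W5 (vertical axis) on each of the 16 arrays for Ttr probe 18 (circles) and probe 2234 (squares), joined by a grey line. The probes cross in W1, W3 and W4, in each of which probe 18 is the lower one on 3 of 4 arrays. The widest gap of all, -1.18, is on array 4 of W4. In W2 the probes lie apart, with probe 18 between -0.63 and -0.42 and probe 2234 between -0.20 and -0.02.

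Set against all probes, the members varied to unlike degrees. The median range over the tested probes was 0.24. The ranges of Apoe and Apoc1 exceeded those of 88.8% and 79.4% of tested probes. For Ttr probe 18 this share was 96.3%, and for Ttr probe 2234 it was 19.1%. In the limma 5-kidney test, which asks whether any kidney differs, 4.00% of the 15715 tested probes were called at an adjusted p under 0.05. Apoe, Apoc1 and Ttr probe 18 were among them, 3 of 4 member probes, from the values on which the genes were chosen. Of these, only Ttr probe 18 was also called among W1 to W4, where 0.700% of all probes were. These calls rest on the selecting values, so they describe the member probes and are no test of them.

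The members formed opposed profiles. After removal of the dye term, the cosine between probes over the 16 arrays, where 1 means the same profile, was -0.67 for Apoe and Apoc1 and -0.74 for Apoe and Ttr probe 18. Apoc1 and Ttr probe 18 had a cosine of 0.80. The Ttr probes reached only 0.28 with each other. All arrays share the RNA of W5, so a deviation of W5 alone moves every array to 1 side and adds to these cosines.

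The genes most like each member were sought among 7903 named genes with at least 14 shared arrays. For Apoe they were Fbln5, an elastic fibre protein, at a cosine of 0.91, H2-Aa, an MHC class II chain, and Mgp, the matrix Gla protein, both at 0.90, Creg1, a secreted glycoprotein, at 0.90, and Igfbp3, a carrier of insulin-like growth factors, at 0.90. All 5 were called in the 5-kidney test (limma adjusted p between 2.89e-10 and 0.0115). Fbln5 lay at 0.70, 1.22, 0.48 and 1.21 in W1 to W4, and H2-Aa at 0.10, 0.46, 0.16 and 0.46. W2 and W4 were thus the highest mice for both, as for Apoe. The other Creg1 probe was not called (limma adjusted p = 0.114), and Creg1 lost its call without mouse W2 or W4 (limma adjusted p = 0.0708 and 0.0869). For Apoe, 58 genes had a cosine over 0.8.

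For Apoc1 the most similar genes were Gstt2, a glutathione transferase, at 0.88, Fasn, the fatty acid synthase, at 0.86, Cyp4a14, a fatty acid omega-hydroxylase, at 0.84, Rdh16f2, of the retinol dehydrogenase family, at 0.83, and Nt5e, the ecto-5'-nucleotidase CD73, at 0.83. Each was farthest from W5 in W2, with Fasn at -0.41 and Cyp4a14 at -1.63 there. Only 9 genes exceeded 0.8. Gstt2 and Nt5e were also among the 5 genes most like Ttr probe 18, at 0.88 and 0.85.

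The gene closest to Ttr probe 18 was Plin4, a lipid droplet coat protein, at 0.92, with -0.02, -0.46, -0.18 and -0.29 in W1 to W4. 4930451G09Rik followed at 0.85, and Odf4, a sperm tail protein, at 0.84, of which the latter was not called (limma adjusted p = 0.0524). Plin4, Gstt2 and 4930451G09Rik lost their calls without mouse W2 (limma adjusted p = 0.148, 0.145 and 0.157), and so did Fasn (0.377). Gstt2 also lost it without arrays 1 or 3 of W2 and without any other mouse, Fasn without arrays 1 or 2 of W2 and without W1, and 4930451G09Rik without W3. Without the dye term Fasn and 4930451G09Rik lost theirs (limma adjusted p = 0.124 and 0.106), and Fasn did at a common median absolute deviation of the arrays (limma adjusted p = 0.0595). For Ttr probe 2234 the closest gene was AI425999 at 0.83, followed by Stk24, Chd2, Xbp1 and Psmd13. None of these 5 was called (limma adjusted p of 0.401 or more), and their ranges of 0.06 to 0.40 lie close to the noise.

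**Figure D4:**
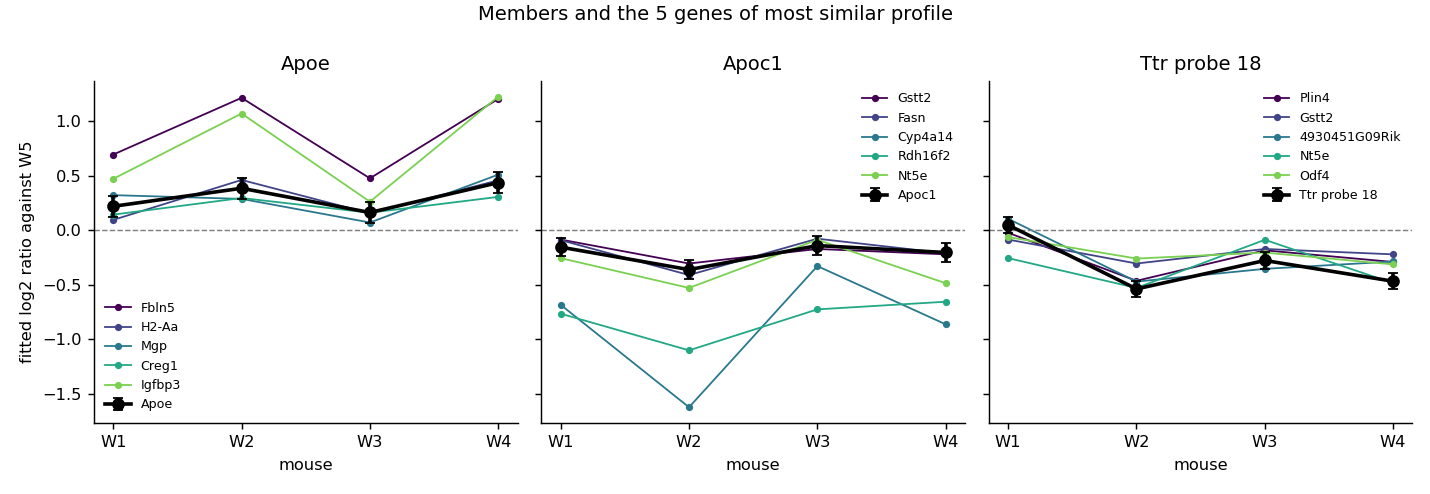
Fitted log2 ratio against W5 (vertical axis) in W1 to W4 for Apoe, Apoc1 and Ttr probe 18 (black, with SE) and for the 5 genes of highest cosine to each (colours). Apoe and its similar genes lie above 0 and peak in W2 or W4, and Mgp has a W2 value of 0.29 below its W1 value of 0.32. Apoc1 and its similar genes lie below 0 and lowest in W2, while in the panel of Ttr probe 18 that probe and 4930451G09Rik are above 0 in W1, at 0.05 and 0.11.

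Markers of cell types known to make these proteins were read beside them, over 1 probe per named gene. Of the 8002 such genes other than the members 4.16% were called, and their median range was 0.23. Markers of macrophages, which are among the cells known to make Apoe and Apoc1, had 0 of 11 tested genes called by limma, with 4 at an unadjusted p under 0.05. The count was 1 without array 2 of W2 or without the whole mouse. Their medians in W1 to W4 were -0.05, -0.01, 0.05 and 0.10, and Ctss, a lysosomal protease, had the largest range at 0.57 (limma adjusted p = 0.159). Adrenal cortex markers, from the gland beside the kidney, had 0 of 4 called, with 1 at an unadjusted p under 0.05 and medians of 0.01, -0.11, -0.18 and 0.04. Nr5a1, the steroidogenic factor, had the largest adrenal range at 0.44 (limma adjusted p = 0.624).

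For Ttr, hepatocyte markers had 1 of 10 called by limma, namely Apoh, with 4 at an unadjusted p under 0.05. Their medians were 0.01, 0.00, 0.09 and -0.03 in W1 to W4, and 2 were called without array 3 of W4. Alb, the serum albumin gene, lay at 0.06, 0.05, 0.10 and 0.34. Pancreas markers had 0 of 3 called by limma, with 1 at an unadjusted p under 0.05 and medians of 0.01, 0.03, -0.10 and -0.16. The tested genes were Cpa1, Prss2 and Sst, while the hormone genes Ins1, Ins2, Gcg and Iapp of the list were not tested. Cpa1, a digestive protease, had the largest pancreas range at 0.63 (limma adjusted p = 0.237). The ratios hold no absolute level, so the presence of a cell type was not read from them. The part of these cell types in the Ttr values was not tested.

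Other markers were chosen after the similar genes were seen, and 3 of their called genes, Fbln5, Mgp and H2-Aa, are among the 5 genes most like Apoe. Endothelial and vessel wall markers had 6 of 12 called, among them Esm1 at 0.14, 0.54, 0.04 and 0.74 in W1 to W4, and medians of 0.05, 0.27, 0.04 and 0.25. Emcn, Egfl7, Mgp, Fbln5 and Col3a1 were the other called genes, and Col3a1 lost its call in 11 of 28 alternative settings. Without mouse W2 the list had 3 called genes. Genes that were not called included Myh11, of smooth muscle, at -0.41 in W4, and Vwf, the von Willebrand factor gene, at -0.11 in W2. MHC class II genes had 2 of 5 called, H2-Aa and H2-Eb1 (the latter not without mouse W4), and medians of 0.00, 0.35, 0.06 and 0.31. The medians of both lists were highest in W2 and W4, as Apoe was, but single genes such as H2-DMb1, at -0.07 in W2, were not. Their part in the Apoe values was not tested.

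Adipocyte markers had 6 of 9 called, with medians of -0.08, -0.34, -0.26 and -0.24 in W1 to W4. The called genes were Scd1, Cidec, Fabp4, Lpl, Car3 and Plin4, of which the fatty acid binding protein gene Fabp4 lay at -0.47, -0.67, -0.64 and -0.31. The median of the list lay on the side of Apoc1 in W1 to W4. It lay on the side of Ttr probe 18 in W2, W3 and W4 but not in W1, where that probe was at 0.05. The median was farthest from W5 in W2, and the list includes Plin4, which was found by its likeness. Single genes differed, as Scd1, a fatty acid desaturase, lay at -0.75, -0.13, -0.62 and 0.12 in W1 to W4. Cidec, a lipid droplet protein, and Car3, a carbonic anhydrase, were farthest from W5 in W4, at -0.85 and -0.53. Its part in those values was not tested.

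Of the other apolipoproteins, 2 of 10 tested were called, with a median range of 0.38. Apoh, which binds phospholipids and shapes coagulation, lay on the plus side of W5 at 0.14, 0.44, 0.42 and 0.35 in W1 to W4 (limma adjusted p = 0.000131). Clu, the secreted chaperone clusterin, lay on the minus side at -0.20, -0.26, -0.06 and -0.45 (limma adjusted p = 0.0382), a call lost in 17 of 28 settings. Apoa1, the main protein of HDL, was not called at -0.24, -0.12, 0.08 and -0.10 (limma adjusted p = 0.346).

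The cluster around Apoe and Apoc1 showed no called neighbour. Among the 10 nearest protein-coding genes on each side in the gene order of assembly GRCm38.p6, 10 were tested and 0 were called by limma, with 1 at an unadjusted p under 0.05. Their median range was 0.19. Apoc4 lay at 0.13, -0.14, -0.24 and 0.06 in W1 to W4 and Apoc2, the activator of lipoprotein lipase, at 0.07, 0.06, -0.02 and 0.08. Tomm40, a mitochondrial import pore next to Apoe, lay at -0.08, 0.07, 0.07 and -0.14. Apoe and Apoc1, with 0 protein-coding genes between them, lay on opposite sides of W5. Around Ttr 1 of 4 tested neighbours was called, the meprin gene Mep1b, at -0.17, -0.10, -0.31 and -0.29 (limma adjusted p = 0.0268), a call lost in 8 of 28 settings.

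Of 12 tested lipoprotein receptor genes 1 was called, with a median range of 0.18. Stab1, a scavenger receptor, lay at 0.07, 0.21, 0.12 and 0.55 (limma adjusted p = 0.0339), a call lost in 11 of 28 settings. Lrp2, the megalin gene, lay at 0.16, 0.16, -0.05 and 0.07 (limma adjusted p = 0.334), and its partner Cubn at 0.07, 0.07, -0.24 and -0.07 (limma adjusted p = 0.301). Lrp1, the remnant receptor, was not called either, at a range of 0.39 (limma adjusted p = 0.484).

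Genes of cholesterol efflux and the LXR receptors, which regulate Apoe and Apoc1 in macrophages, had 2 of 14 called and a median range of 0.27. Lpl, the lipoprotein lipase gene, lay at -0.03, -0.49, 0.10 and -0.15 (limma adjusted p = 0.0273), and its other 2 probes were called too, with ranges of 0.65 and 0.77. Pltp, the phospholipid transfer protein, lay at -0.01, -0.45, -0.16 and 0.09 (limma adjusted p = 0.0277). W2 was the mouse farthest from W5 in both genes, and without it neither was called (limma adjusted p = 0.637 and 0.487). Leaving out array 2 or array 4 of W2 also took the call from both, and array 1 or 3 from 1 of them. Without the dye term Lpl and Pltp were not called either (limma adjusted p = 0.262 and 0.0629). Pltp also lost its call without mouse W1 (limma adjusted p = 0.0659). Nr1h3, the LXRalpha gene, was not called at -0.16, -0.02, 0.20 and -0.01 (limma adjusted p = 0.207).

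Genes of retinol and thyroid hormone transport and response, the cargo of transthyretin, had 1 of 10 called and a median range of 0.34. This was Rara, a retinoic acid receptor, at -0.07, -0.46, -0.16 and 0.09 (limma adjusted p = 0.0494). The call was lost in 18 of 28 settings, and the other Rara probe was not called (limma adjusted p = 0.119). Aldh1a1, which makes retinoic acid, had the largest range of the list at 1.15 but was noisy, with a technical SD of 0.69, and was not called (limma adjusted p = 0.160). Rarb, another retinoic acid receptor, was not called at -0.01, 0.28, 0.21 and 0.29 (limma adjusted p = 0.218).

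Proteins that the liver secretes into plasma, a list that contains several of the genes above, had 2 of 33 called and a median range of 0.26, with 4 called without array 1 of W3 or array 2 of W4 and 5 with the array number as a replicate block. Besides Apoh this was Azgp1, zinc-alpha-2-glycoprotein, at -0.50, 0.90, -0.03 and 0.31 (limma adjusted p = 3.70e-07). Markers of kidney cell types were measured for 6 genes, of which the water channel genes Aqp2 and Aqp1 were called. Aqp2 lay at -0.36, 0.05, -0.13 and -0.54, and Aqp1 at -0.29, 0.17, -0.22 and -0.30, an order of mice unlike that of Apoe, Apoc1 or Ttr probe 18. Neither water channel gene was called without mouse W1 or without mouse W4. The same held for Aqp2 and Aqp1 without the dye term (limma adjusted p = 0.0633 and 0.149).

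**Figure D5:**
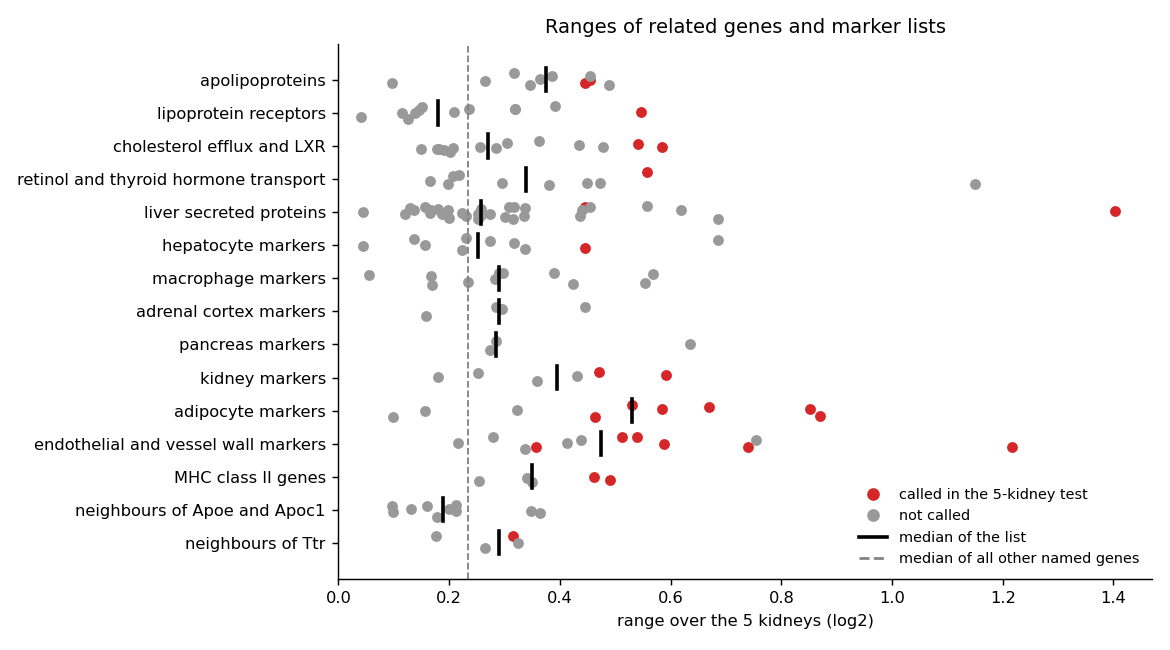
Range over the 5 kidneys in log2 units (horizontal axis) for each tested gene of the lists; red genes were called in the 5-kidney test and grey genes were not. Black ticks mark the median of a list and the dashed line the median of all other named genes, 0.23; the Apoe and Apoc1 neighbours lie at a median of 0.19 and the apolipoproteins at 0.38.

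Over the whole series, an array gave values for 80.2% to 91.1% of the probes, and the number of hybridisations and animals limits the precision. Arrays of W4 had residual SDs of 0.21 to 0.23 and those of W1 0.15 to 0.17, so W4 values carry more noise than the common SE states.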

How the data were processed

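The authors deposited log2 ratios of the 2 channels of each array, per the labels' descriptions from mean intensities less background, with the median ratio of an array set to 1. The labels name a GenePix scanner and the GenePix Pro software. The log base came from the values: less each array's most frequent value, 1.55% to 4.90% of an array's values matched, to 2e-06, the log2 of small whole-number ratios, against at most 0.0342% for natural logs and 0.123% for log10. Signs were turned on arrays that held W5 in channel 1; a mouse's turned arrays of opposite orientation correlated across probes at 0.132, 0.0589, 0.0483 and 0.0761 in W1 to W4, after centring over mice.

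The 15715 probes measured on at least 3 of 4 arrays for every mouse were tested with limma 3.58.1 in R 4.3.3 (lmFit, eBayes; 4 mouse coefficients and a dye term; moderated F tests). Benjamini-Hochberg adjustment ran over all tested probes. W5 was set against its littermates on 4 mouse means, so the spread of W5 is not part of that test; no member was called there, where 0.350% of probes were (limma; 2152 probes at an unadjusted p under 0.05). Of 20205 probes 11723 had 1 gene symbol, 806 several and 7676 none; 11590 were matched by gene ID to the gene table. One probe per gene, measured on most arrays and then of first identifier, stood for other genes. Text names all member probes, the 5 most similar genes per member, and in each list the called genes (at most 6) or else the one of largest range; further genes were named after their values were seen for their known roles. The members and lists were chosen with earlier results of these data known. The fit was tested on simulated data.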

Additional observations from a re-analysis of the deposited data

Results flagged for a closer look

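In each of 16 groups of 4 arrays (4 member probes in 4 mice), the outermost array was set against the spread of the other 3, and 2 groups held an array that stood apart. Chance gives about 1 such group in 20 where the 4 values differ by noise alone. The values were taken before removal of the dye term, and each group mixed both orientations, so that rate is no measure here. For Ttr probe 18 in W4, array W4.1 read -0.12 against -0.60 to -0.56 on the other arrays, and without it the W4 value was -0.57. After removal of the dye term W4.1 read -0.20, and the other arrays -0.49, -0.66 and -0.53. For Ttr probe 2234 in W3, array W3.4 read 0.35 against -0.17 to -0.15, and without it the W3 value was -0.12. After removal of the dye term W3.4 read 0.20, and the other arrays -0.02, -0.30 and -0.02. Both arrays thus stood out less once the dye term was removed. No mouse stood apart in this way for a member or a named gene (45 further groups of 4 mice).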

How the results depend on the processing

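The fitted values of Apoe, Apoc1 and Ttr probe 18 kept their sign in every mouse in all settings tried. Many of these settings cannot move the value of a mouse, such as dropping the dye term or leaving out another mouse or its arrays. Ttr probe 18 in W1 ran only from 0.04 to 0.06, within its SE of 0.08, and its single arrays lay on both sides of W5. Ranges without 1 array ran from 0.39 to 0.50 for Apoe, 0.31 to 0.40 for Apoc1, 0.56 to 0.62 for Ttr probe 18 and 0.08 to 0.24 for Ttr probe 2234. The range of Apoc1 was 0.20 without mouse W2. Ttr probe 2234 changed sign in W1, W3 and W4 in 1, 1 and 2 settings. The 5-kidney count of 629 probes became 403 without the dye term, and 366 and 331 after leaving out mouse W1 and mouse W2. With 1 probe per named gene it was 383, from a smaller tested set (8002 genes besides the members, against 15715 probes). Without 1 array it ran from 468 to 692. The W1 to W4 count of 110 became 62 without the dye term, 240 with array weights, and 52, 55, 50 and 63 without W1, W2, W3 and W4; without 1 array it ran from 70 (array 2 of W3) to 120. The count of 55 for W5 against its littermates became 126 with values on all 4 arrays and 22 with at least 2. It became 26 and 17 after leaving out W1 and W2. Over single arrays with a random block for the mouse the count was 502. The correlation of arrays of a mouse was -0.0071, so that fit took the arrays of a mouse as nearly independent. The cause of these changes in the count was not tested. With a replicate block (array number) the 5-kidney count was 591 and the W1 to W4 count 97; same-numbered arrays had residual correlations of -0.25 to 0.13, so the numbers do not pair the arrays.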
